A study of Mus musculus with 12 samples.

Results

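The nuclear genes of the respiratory chain were examined in RNA-seq libraries of the mouse adrenal cortex. They were the protein-coding genes whose symbol begins with Nduf, Uqcr, Cox4, Cox5, Cox6, Cox7, Cox8 or Atp5, together with Cyc1 and Cycs, and 91 of the 49585 genes in the count files met this definition. Of these, 36 encode complex I subunits, 8 encode complex I assembly factors, 9 belong to complex III, 20 to complex IV and 17 to complex V, and Cycs encodes cytochrome c. Male mice were 6 weeks old at the start and were fed for 20 weeks, 4 mice per group. The LFD group, called Normal Diet in the labels, received 10% of its energy as fat, and the HFD group received 60%. The third group received the HFD throughout and icosapent ethyl, a purified ethyl ester of eicosapentaenoic acid, in the HFD during the last 10 weeks. The labels give all 12 mice as Fads2-/-, whereas the methods of the study describe wild-type C57BL/6J mice on these diets. Fads2 was expressed at 452 to 2182 CPM (counts scaled to the TMM-normalized library size, where TMM is the trimmed mean of M values) in the 12 mice.

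The respiratory chain of the inner mitochondrial membrane passes electrons from NADH through complex I, ubiquinone, complex III and cytochrome c to oxygen at complex IV, and complex V uses the resulting proton gradient to make ATP. A few subunits are encoded by mitochondrial DNA and all others by nuclear genes. In steroidogenic cells, mitochondria also hold the enzymes that start and finish corticosteroid synthesis. The comparisons bear on whether a HFD, or icosapent ethyl given with it, goes with altered RNA of this machinery in the adrenal cortex.

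The libraries held 34785979 to 67295963 counts on genes. Nuclear respiratory chain genes took 1.38% to 1.61% of them. Of 10 adrenocortical markers, every gene was detected, with summed levels of 44732 to 75197 CPM in LFD, 58956 to 105487 CPM in HFD and 61667 to 97574 CPM in icosapent ethyl–treated mice. All 10 chromaffin cell markers were detected as well, although the labels name only cortex. Their summed levels were 6403 to 22569 CPM in LFD, 3083 to 9960 CPM in HFD and 5531 to 10967 CPM in icosapent ethyl–treated mice. In such bulk RNA, fewer cells of a type and less RNA per cell cannot be told apart.

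Promoter windows of 4 genes are shown because these genes stand for the patterns described below. They are Ndufaf4, the gene that passed the threshold, Cox6a1, a widely expressed complex IV subunit, and Cox8b and Cox7a1, subunit isoforms known from muscle and brown fat. Each window runs from 250 bases before to 50 bases after the annotated start, on the strand of the gene, as given by RefSeq for GRCm38.p6. The windows lie at chr4:24897833-24898132 on the plus strand (Ndufaf4), chr5:115348909-115349208 on the minus strand (Cox6a1), chr7:140900397-140900696 on the minus strand (Cox8b) and chr7:30183921-30184220 on the plus strand (Cox7a1). Capitals mark matches on either strand to GCATGCGC (the core of the NRF1 motif), CCGGAAG (that of GABPA), AAGATGGC (that of YY1) or TATAAAA (the core promoter box that binds TBP).
Ndufaf4: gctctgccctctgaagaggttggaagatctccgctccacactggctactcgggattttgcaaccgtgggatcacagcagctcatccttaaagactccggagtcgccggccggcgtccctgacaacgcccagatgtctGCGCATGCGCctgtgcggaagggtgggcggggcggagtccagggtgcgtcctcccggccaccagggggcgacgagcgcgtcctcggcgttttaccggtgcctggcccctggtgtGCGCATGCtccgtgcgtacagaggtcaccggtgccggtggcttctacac
Cox6a1: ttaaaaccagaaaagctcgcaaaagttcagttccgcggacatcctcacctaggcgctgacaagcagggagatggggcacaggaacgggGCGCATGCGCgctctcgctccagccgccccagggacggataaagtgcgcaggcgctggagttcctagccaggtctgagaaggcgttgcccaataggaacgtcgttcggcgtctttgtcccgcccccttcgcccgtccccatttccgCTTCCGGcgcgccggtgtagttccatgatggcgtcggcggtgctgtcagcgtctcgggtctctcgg
Cox8b: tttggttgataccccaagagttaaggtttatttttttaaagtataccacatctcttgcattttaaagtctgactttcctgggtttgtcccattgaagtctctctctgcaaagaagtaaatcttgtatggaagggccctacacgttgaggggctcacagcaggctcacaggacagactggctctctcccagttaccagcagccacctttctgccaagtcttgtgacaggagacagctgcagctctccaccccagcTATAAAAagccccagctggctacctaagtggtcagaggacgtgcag
Cox7a1: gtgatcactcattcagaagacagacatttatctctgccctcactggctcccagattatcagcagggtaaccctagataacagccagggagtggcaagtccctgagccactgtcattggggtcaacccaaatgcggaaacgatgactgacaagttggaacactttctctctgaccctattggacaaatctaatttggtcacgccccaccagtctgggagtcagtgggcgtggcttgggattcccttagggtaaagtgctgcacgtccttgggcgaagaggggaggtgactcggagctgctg

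The Ndufaf4 window holds the NRF1 letters on both strands, overlapping, from 113 bases before the start, and on the opposite strand from base 2 of the annotated transcript. The Cox6a1 window holds them on both strands, overlapping, from 162 bases before the start, and the reverse complement of the GABPA letters from 16 bases before it. The Cox8b window holds none of these and a TATAAAA from base 5 of the annotated transcript, and the Cox7a1 window holds none of the 4 motifs. NRF1, GABPA and YY1 are transcription factors known for binding many promoters of nuclear mitochondrial genes. RefSeq windows were matched for 72 of the 91 genes. GCATGCGC was in 12 of these 72 windows (16.7%) and in 3.05% of the windows of all 27025 genes. CCGGAAG was in 16 (22.2%, against 9.93% of all genes), AAGATGGC in 10 (13.9%, against 3.19%) and TATAAAA in 3 (4.17%, against 6.39%). At least 1 of the first 3 motifs was in 32 of the 72 windows. A match describes letters and not an occupied site.

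Levels of different genes were compared as CPM per kilobase of the longest principal transcript. Cox4i1, the widely expressed form of a regulatory subunit of complex IV, was highest at 998 CPM per kilobase over the 12 mice. It was followed by the catalytic β and α subunits of ATP synthase, Atp5b at 853 and Atp5a1 at 563 CPM per kilobase. In complex I, the median of the 36 subunits was 124 CPM per kilobase. The complex III genes lay within a narrow range, from 130 to 353 CPM per kilobase. The complex I assembly factors, which build the complex and are not part of the finished enzyme, lay between 6.96 and 31.6 CPM per kilobase, below the medians of all 4 complexes.

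**Figure D1:**
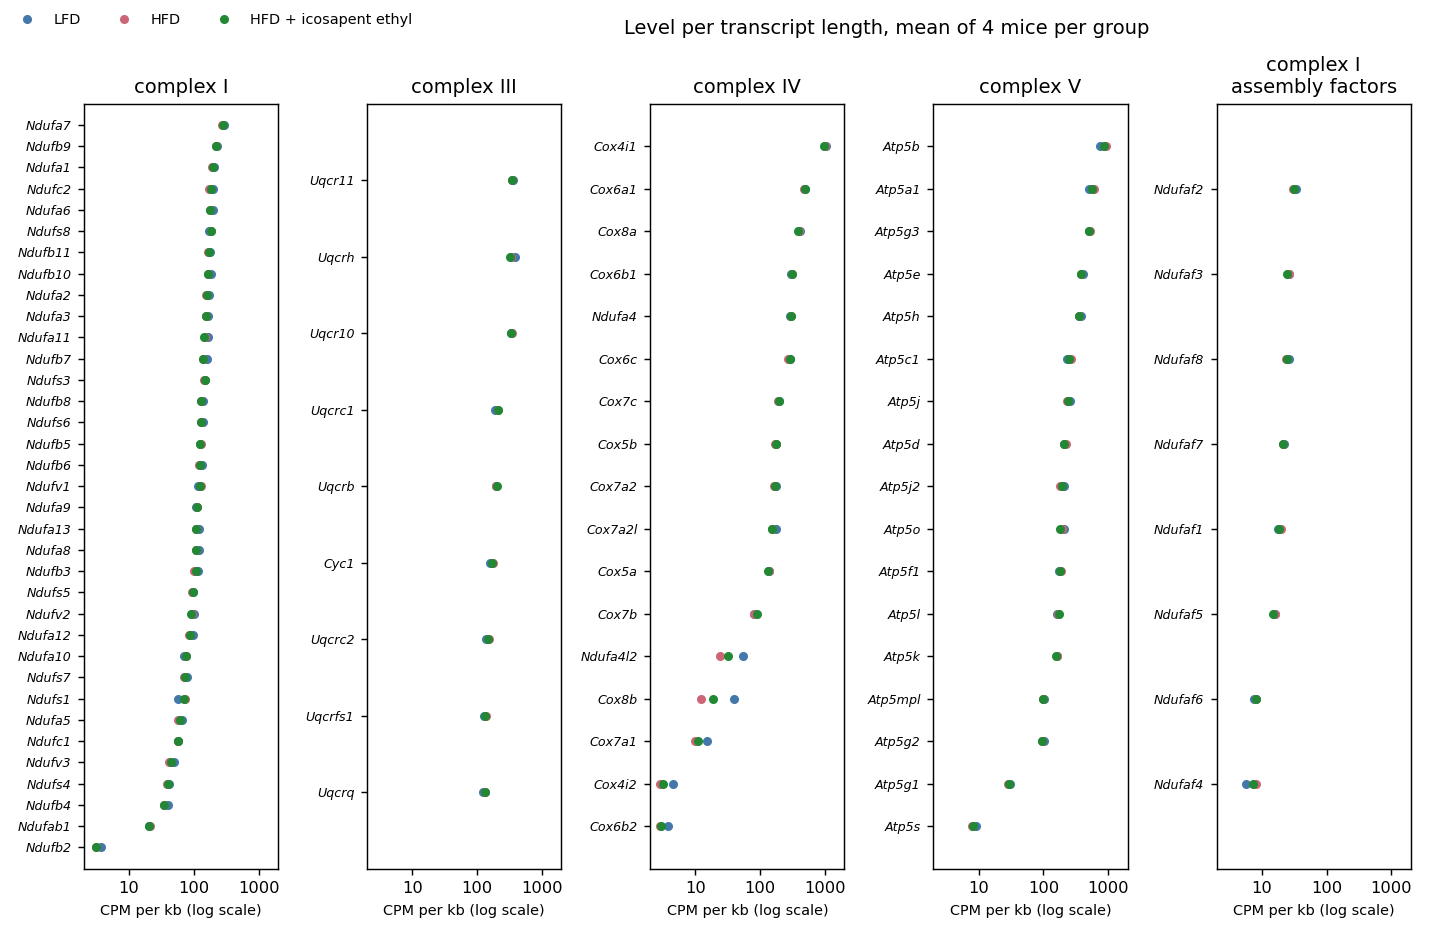
Mean level of the tested genes, apart from cytochrome c and 1 gene that is not shown, in LFD, HFD and icosapent ethyl–treated mice (4 mice per group), as CPM per kilobase of transcript on a log scale, by complex. The 3 colors overlap for most genes. The LFD point stands apart, above the other groups, for Ndufa4l2, Cox8b, Cox7a1, Cox4i2 and Cox6b2 of complex IV, and below them for Ndufaf4.

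Within complex IV, isoforms of the same subunit differed widely in level. Cox4i1 stood at 998 and Cox4i2, the isoform known from lung and from hypoxia, at 3.52 CPM per kilobase. Cox7a2 stood at 170 and its muscle-type counterpart Cox7a1 at 11.98 CPM per kilobase. Cox8a stood at 401 and Cox8b at 23.4 CPM per kilobase. Cox6b1 stood at 307 and Cox6b2, known from testis, at 3.22 CPM per kilobase. Cox6a2, the muscle form of Cox6a1, had 1 to 14 counts per mouse, and Cox7b2 and Cox8c had 1 count each among all 12 mice. A count of 0 still allows 3 counts, or 0.0446 to 0.0862 CPM in these libraries, as a limit from counting error only. These 3 genes were removed by the filter on low counts in all comparisons, which left 88 of the 91 genes to test.

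In HFD versus LFD mice, 1 of the 88 genes, Ndufaf4, had an adjusted p below 0.05, and it was higher on the HFD. No gene of the set was called lower. Of all 15909 genes tested, 1.45% were called, 0.974% higher and 0.471% lower. These 230 calls became 918 without HFD mouse 1, 78 without LFD mouse 2 and 0 without any 1 of the other 6 mice. The median log2 fold change of the 88 genes was -0.07, with 29 higher and 59 lower, and that of all genes tested was -0.01, with 48.2% higher. At an unadjusted p below 0.05 there were 9 of the 88 genes, 4 higher and 5 lower, where 24.8% of all genes tested had such a p (12.4% higher and 12.5% lower). The Wald test of DESeq2 called Ndufaf4 higher and Cox7a1, Cox8b and Ndufa4l2 lower, among 1965 genes that it called in all (12.3% of the 15923 to which it gave an adjusted p).

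**Figure D2:**
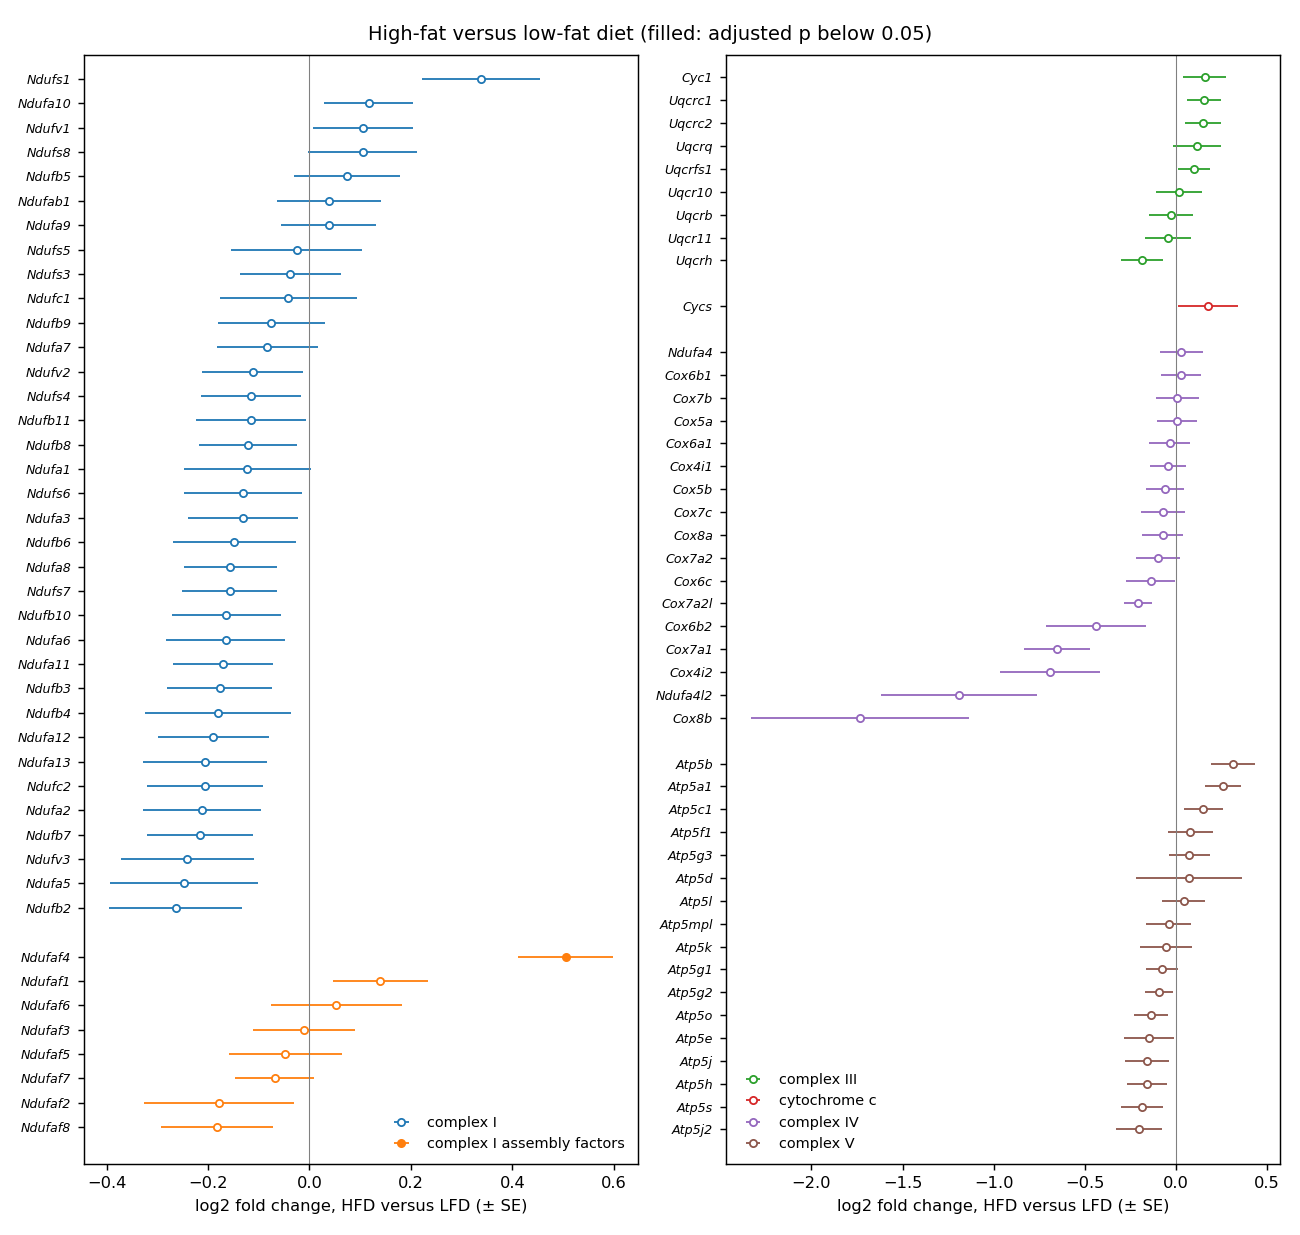
Log2 fold change of the tested genes, apart from 1 that is not shown, in HFD versus LFD mice (4 and 4), with the standard error, sorted within each complex. Only Ndufaf4 is filled (adjusted p below 0.05). The lowest points are the complex IV isoforms and Ndufa4l2, and Ndufs1, Atp5b and Atp5a1 are the highest subunits.

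Ndufaf4 (ENSMUSG00000028261, chromosome 4 of GRCm38 from 24898083 to 24905001, plus strand) encodes an assembly factor of complex I. It was expressed at 20.9, 20.8, 20.3 and 19.5 CPM in LFD mice 2, 5, 6 and 7 and at 26.3, 30.6, 28.7 and 30.8 CPM in HFD mice 1 to 4. Icosapent ethyl–treated mice 1 to 4 had 27.8, 24.4, 21.6 and 31.5 CPM. Every HFD mouse and every icosapent ethyl–treated mouse was above every LFD mouse. The log2 fold change in HFD versus LFD mice was 0.51 ± 0.09 (SE, n = 4 per group, adjusted p = 0.044 by edgeR). In all genes tested, 7.71% had every HFD mouse above every LFD mouse. The call was lost without any mouse other than HFD mouse 1 (adjusted p from 0.060 to 0.140), while the log2 fold change stayed between 0.48 and 0.55. The other 7 assembly factors had log2 fold changes from -0.18 (Ndufaf8) to 0.14 (Ndufaf1), and their lowest adjusted p was 0.329.

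**Figure D3:**
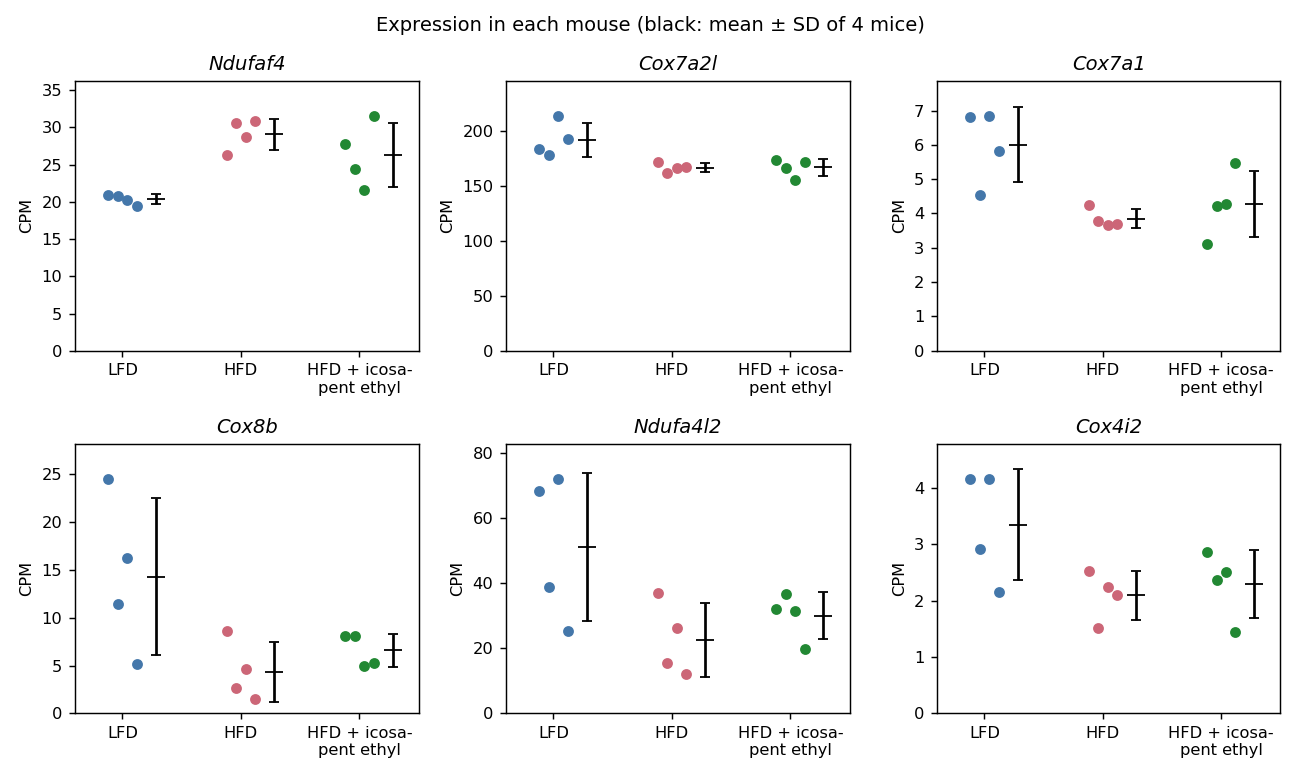
CPM of 6 genes in each mouse of the 3 groups, with the mean and SD of 4 mice beside the points. Ndufaf4 lies between 19.5 and 20.9 CPM in the LFD and between 26.3 and 30.8 CPM in HFD mice. Cox7a2l and Cox7a1 are lower in every HFD mouse than in every LFD mouse, and Cox8b, Ndufa4l2 and Cox4i2 overlap.

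Complex I has a core that oxidizes NADH and carries the iron-sulfur clusters, and a shell of accessory subunits. The core genes were divided in direction, whereas most accessory genes had negative fold changes, and the difference between core and accessory genes was not tested. Of the 7 core genes, 4 were higher in HFD mice, among them Ndufs1 and Ndufv1, and 3 were lower, among them Ndufs7, and the median of their log2 fold changes was 0.10. Of the 29 accessory genes, 4 were higher and 25 were lower, with a median of -0.15. None of the 36 was called. Ndufs1, the largest core subunit, which carries iron-sulfur clusters, was expressed at 125, 154, 147 and 177 CPM in the LFD and 163, 186, 209 and 208 CPM in HFD mice. The groups overlapped in Ndufs1, with LFD mouse 7 above HFD mouse 1, and its log2 fold change was 0.34 ± 0.12 (adjusted p = 0.131). Ndufv1, which binds NADH, had a log2 fold change of 0.11 ± 0.10 (adjusted p = 0.538). Ndufs8, whose value was the core median, had 0.10 ± 0.11 (adjusted p = 0.586). Over the alternatives that kept all mice, Ndufv1 ranged from 0.0017 to 0.12 and Ndufs8 from -0.0059 to 0.12. Accessory subunits reached down to -0.26 ± 0.13 in Ndufb2 (adjusted p = 0.247). Ndufb7 had 112, 86.5, 104 and 98.5 CPM in the LFD and 81.1, 80.0, 89.0 and 97.4 CPM in HFD mice, with a log2 fold change of -0.22 ± 0.10 and the lowest adjusted p of the accessory subunits, 0.234. Within each mouse, the mean log2 level of the core minus that of the accessory subunits, set to a mean of 0 in LFD mice, was -0.15, 0.11, -0.04 and 0.09 in LFD and 0.14, 0.22, 0.21 and 0.17 in HFD mice. These values did not overlap between the groups and are given as a description. In icosapent ethyl–treated mice they were 0.17, 0.04, 0.18 and 0.21.

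The direction of the fold changes went with transcript length. The principal transcripts of the core subunits had a median length of 1623 bases and those of the accessory subunits one of 763 bases. Across the 88 genes, Spearman's rho between length and log2 fold change was 0.41, and it was 0.19 across all 14182 protein-coding genes tested. These are descriptions across genes that share the same 8 libraries. The 41 genes of up to 800 bases had a median log2 fold change of -0.12, against -0.16 for all 426 protein-coding genes of that length. The 20 genes from 1200 to 2000 bases had a median of 0.07, against -0.05 for all 2437 of that length. The part of length in the fold changes was not tested.

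**Figure D4:**
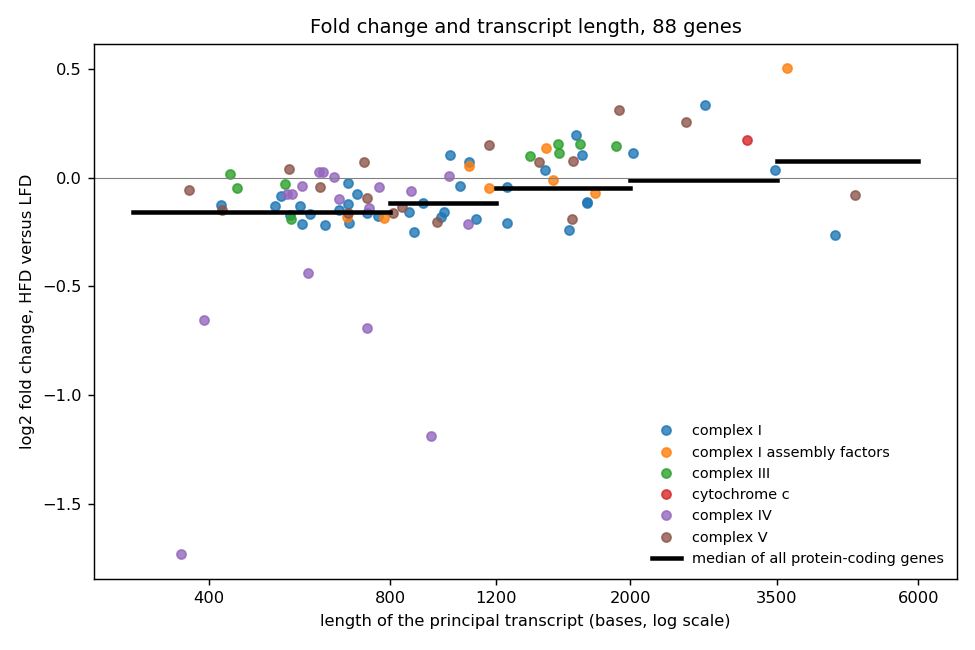
Log2 fold change in HFD versus LFD mice against the length of the principal transcript (log scale) for the 88 genes, colored by complex. Black bars give the median of all protein-coding genes in 5 length classes, from -0.16 up to 800 bases to 0.08 above 3500 bases.

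Complex III and cytochrome c had positive medians. Of the 9 complex III genes, 6 were higher in HFD mice and the median of their log2 fold changes was 0.10 (-0.0030 when library totals were used without scaling), and none was called. The catalytic subunits are cytochrome c1, encoded by Cyc1, and the Rieske iron-sulfur protein, encoded by Uqcrfs1. Cyc1 was expressed at 217, 223, 250 and 269 CPM in the LFD and 224, 247, 299 and 307 CPM in HFD mice. The groups overlapped, and its log2 fold change was 0.16 ± 0.12 (adjusted p = 0.434). Uqcrfs1 had a log2 fold change of 0.10 ± 0.09 (adjusted p = 0.514). The core proteins Uqcrc1 and Uqcrc2 had log2 fold changes of 0.15 ± 0.09 and 0.15 ± 0.10, with adjusted p = 0.334 and 0.373. Uqcrh, the small hinge protein, had the lowest, at -0.19 ± 0.12 (adjusted p = 0.342). Cycs, the mobile electron carrier, had 47.6, 42.4, 48.6 and 57.2 CPM in the LFD and 42.1, 46.5, 67.05 and 66.8 CPM in HFD mice. Cycs was thus high in HFD mice 3 and 4 and within the LFD range or just below it in HFD mice 1 and 2, with a log2 fold change of 0.18 ± 0.17 (adjusted p = 0.551).

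In complex IV, the widely expressed subunits lay near 0 and the tissue-restricted isoforms had the lower fold changes. The 10 widely expressed genes had log2 fold changes from -0.14 (Cox6c) to 0.03 (Cox6b1), with a median of -0.05, and their lowest adjusted p was 0.562. Cox4i1 had a log2 fold change of -0.04 ± 0.10 (adjusted p = 0.822), Cox5a one of 0.00 ± 0.11 (adjusted p = 0.988) and Cox5b one of -0.06 ± 0.11 (adjusted p = 0.763). Cox6a1, whose promoter is shown above, had one of -0.03 ± 0.11 (adjusted p = 0.876). All 4 tested tissue-restricted isoforms had negative fold changes, and none had an adjusted p below 0.05.

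Cox7a1 (ENSMUSG00000074218, chromosome 7 from 30184144 to 30186078, plus strand) had 6.83, 4.54, 6.84 and 5.82 CPM in the LFD and 4.26, 3.79, 3.65 and 3.69 CPM in HFD mice. Every HFD mouse was below every LFD mouse, as in 5.82% of all genes tested, and the difference was -0.65 ± 0.18 on the log2 scale (adjusted p = 0.088 by edgeR and 0.0074 by DESeq2). Cox8b (ENSMUSG00000025488, chromosome 7 from 140898945 to 140900446, minus strand) had 24.5, 11.4, 16.2 and 5.13 CPM in the LFD and 8.62, 2.69, 4.6 and 1.49 CPM in HFD mice. Its values spread 16.4-fold over the 12 mice, the widest of the 88 genes, and LFD mouse 7 lay below HFD mouse 1. The difference was -1.73 ± 0.60 on the log2 scale (adjusted p = 0.131 by edgeR and 0.019 by DESeq2), and it lay between -2.31 and -1.33 when each mouse was left out. Cox4i2 had a log2 fold change of -0.69 ± 0.27 (adjusted p = 0.167) and Cox6b2 one of -0.44 ± 0.27 (adjusted p = 0.347), both at fewer than 5 CPM in every mouse.

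Ndufa4, which was named for complex I and is now counted with complex IV, had a log2 fold change of 0.03 ± 0.12 (adjusted p = 0.911). Its hypoxia-inducible paralog Ndufa4l2 (ENSMUSG00000040280, chromosome 10 from 127514967 to 127517154, plus strand) had 68.4, 38.7, 72.1 and 25.4 CPM in the LFD and 36.9, 15.4, 26.1 and 11.98 CPM in HFD mice. LFD mouse 7 again lay below HFD mice 1 and 3, and the difference was -1.19 ± 0.43 on the log2 scale (adjusted p = 0.142 by edgeR and 0.039 by DESeq2). Cox7a2l, a factor that joins complexes III and IV in supercomplexes, was expressed at 183, 177, 213 and 192 CPM in the LFD and 171, 161, 166 and 167 CPM in HFD mice. These groups did not overlap, and the difference was -0.21 ± 0.08 on the log2 scale (adjusted p = 0.147). Cox7a1 and Cox7a2l were the 2 of the 88 genes with every HFD mouse below every LFD mouse. Of all 15909 genes tested, 5.82% were so placed.

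Marker lists of other cells were summed in the same mice. The summed chromaffin markers were 19434, 12549, 22569 and 6403 CPM in LFD mice 2, 5, 6 and 7 and 9960, 3083, 8568 and 3201 CPM in HFD mice 1 to 4. All 10 had negative fold changes in HFD versus LFD mice, with a median log2 value of -1.30 and none called. LFD mouse 7 was the lowest of its group, and HFD mouse 1 the highest of its group, in the chromaffin sum, in Cox8b and in Ndufa4l2. The other extremes differed in part. The highest LFD mouse was mouse 6 in the sum and in Ndufa4l2 and mouse 2 in Cox8b. The lowest HFD mouse was mouse 2 in the sum and mouse 4 in Cox8b and Ndufa4l2. In Cox7a1, HFD mouse 1 was also the highest of its group, and LFD mouse 5 was the lowest. Of 6 brown adipocyte markers, Dio2, Elovl3 and Cpt1b were below 1 CPM in every mouse. The sum of the 6 was 17.8, 13.9, 22.3 and 10.2 CPM in LFD mice 2, 5, 6 and 7. It was 16.3, 15.9, 6.72 and 6.87 CPM in HFD mice 1 to 4. In this sum, too, LFD mouse 7 was the lowest and HFD mouse 1 the highest of its group. The highest LFD mouse was mouse 6, and the lowest HFD mouse was mouse 3. Of 6 skeletal muscle markers, 5 were below 1 CPM in every mouse, and the sum was 0.92 to 1.76 CPM in the LFD and 1.01 to 1.36 CPM in HFD mice. Of 8 pericyte and smooth muscle markers, 3 were higher and 5 lower. Their sums were 166 to 196 CPM in the LFD and 140 to 161 CPM in HFD mice, with no overlap. Of 8 macrophage markers, 2 were higher and 6 lower, and Cd68, C1qa and C1qc were called lower, and each of these calls held only without HFD mouse 1 or LFD mouse 2 when single mice were removed. Their median log2 fold change was -0.56, and their sum was 426 to 618 CPM in the LFD and 326 to 387 CPM in HFD mice, with no overlap. Of 8 adipocyte markers, 5 were higher and 3 lower, with sums of 246 to 396 CPM in the LFD and 365 to 443 CPM in HFD mice. Of 7 endothelial markers, 2 were higher and 5 lower, with sums of 1002 to 1535 CPM in the LFD and 1063 to 1396 CPM in HFD mice. All 5 germ cell markers were below 1 CPM in every mouse, with sums of 0.471 to 0.752 CPM in the LFD and 0.271 to 0.560 CPM in HFD mice. Cd68, C1qa and C1qc were the only genes of these 9 marker lists that were called. The part of any of these cells in the isoform values was not tested.

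In complex V, the large F1 subunits were among the highest fold changes of the whole set. Atp5b (ENSMUSG00000025393, chromosome 10 from 128083273 to 128090391, plus strand) had 1182, 1432, 1475 and 1666 CPM in the LFD and 1543, 1735, 1961 and 1945 CPM in HFD mice. LFD mouse 7 was above HFD mouse 1, and the difference was 0.31 ± 0.12 on the log2 scale (adjusted p = 0.157). Atp5a1 was expressed at 1131, 1237, 1274 and 1383 CPM in the LFD and 1323, 1456, 1658 and 1605 CPM in HFD mice, with a log2 fold change of 0.26 ± 0.10 (adjusted p = 0.156). Atp5c1, the central shaft, had one of 0.15 ± 0.11 (adjusted p = 0.417). The summed adrenocortical markers were 44732, 53997, 56873 and 75197 CPM in the LFD and 58956, 75593, 105487 and 101937 CPM in HFD mice, with all 10 markers higher in HFD mice and none called. Within LFD and within HFD mice, the order of the mice in that sum was also their order in Atp5b and Atp5a1. The part of adrenocortical cells in these values was not tested.

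The rest of complex V was lower or near 0. Of the 4 peripheral stalk genes, 3 were lower, from -0.14 (Atp5o) to -0.16 (Atp5h), and Atp5f1 had 0.08. The c-ring genes encode the same mature protein from 3 loci, Atp5g1, Atp5g2 and Atp5g3, with log2 fold changes of -0.08 ± 0.09, -0.09 ± 0.07 and 0.07 ± 0.11 and a lowest adjusted p of 0.467. Atp5j2, a small membrane subunit, had the lowest of the complex at -0.20 ± 0.13 (adjusted p = 0.341). Atp5d, the δ subunit at the foot of the shaft, varied within each group. It was expressed at 212, 248, 308 and 408 CPM in LFD, 204, 205, 428 and 404 CPM in HFD and 207, 204, 305 and 468 CPM in icosapent ethyl–treated mice. Each group thus had mice near 210 CPM and mice above 400 CPM, and the groups overlapped throughout. The SD of its log2 values within groups was 0.53, where the median of the 88 genes was 0.15. The log2 fold change was 0.07 ± 0.29 (adjusted p = 0.907).

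When all genes of a complex were averaged, the group means of complexes I, III and V differed by less than the SD between mice. The mean log2 level of the 36 complex I subunits, relative to the LFD mean, was 0.04, -0.19, 0.07 and 0.08 in LFD, -0.23, -0.22, 0.03 and 0.09 in HFD and -0.19, -0.05, -0.08 and 0.06 in icosapent ethyl–treated mice. That of the 17 complex V genes was -0.01, -0.17, 0.08 and 0.10 in LFD, -0.19, -0.15, 0.14 and 0.16 in HFD and -0.14, -0.05, -0.03 and 0.13 in icosapent ethyl–treated mice. HFD mice 1 and 2, LFD mouse 5 and icosapent ethyl–treated mouse 1 were the 4 lowest mice in both means. HFD mice 3 and 4 were above the LFD mean in both. The mean of complex III was likewise negative in HFD mice 1 and 2 and positive in HFD mice 3 and 4, as was that of the 10 widely expressed complex IV genes (-0.23, -0.19, 0.11 and 0.13 in HFD mice 1 to 4). The mean of the 4 tissue-restricted isoforms was -0.43, -0.89, -0.75 and -1.01 in HFD mice. It was also negative in LFD mice 5 and 7 (-0.24 and -0.44) and in every icosapent ethyl–treated mouse (-0.64 to -0.36).

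**Figure D5:**
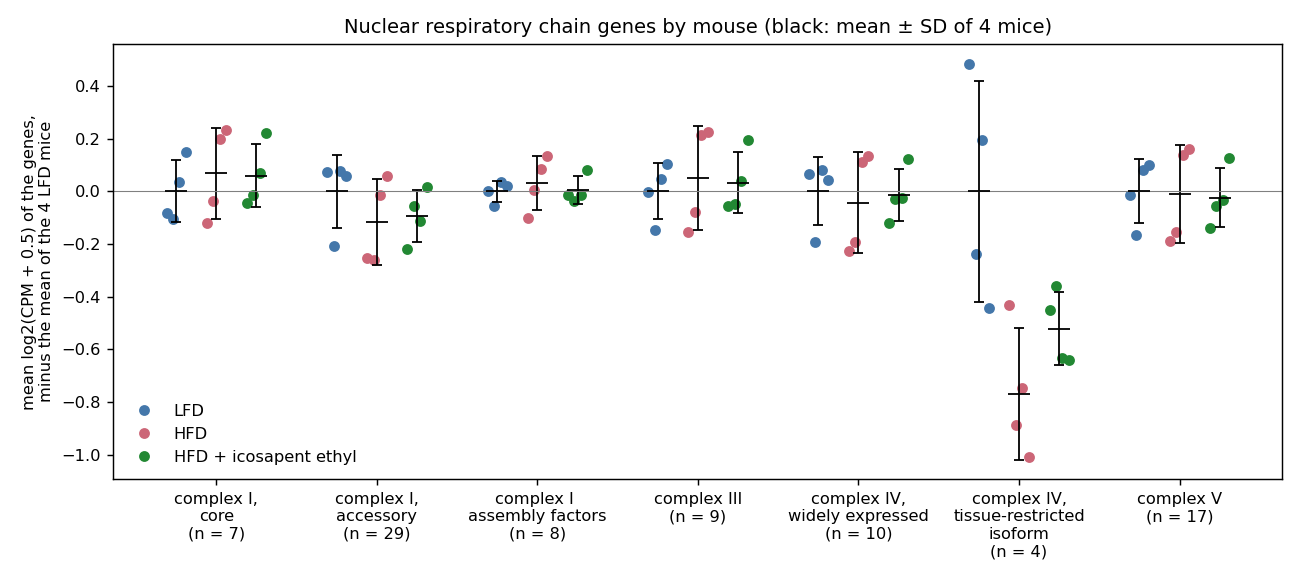
Mean log2(CPM + 0.5) of the genes of each class in each mouse, minus the mean of the 4 LFD mice, with the mean and SD of each group in black. The groups overlap in all 7 classes. The 4 tissue-restricted complex IV isoforms lie lowest in HFD mice, between -1.01 and -0.43.

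In icosapent ethyl–treated versus HFD mice, edgeR gave none of the 88 genes an adjusted p below 0.05, nor any of the 15913 genes tested (0%). None of the 88 had an unadjusted p below 0.05, where 1.39% of all genes tested did, and DESeq2 called 7 genes in all (0.0268% of the 26076 to which it gave an adjusted p) and none of the 88. No gene of the set had groups that did not overlap, which 1.14% of all genes tested had. The median log2 fold change of the 88 genes was 0.01, with 49 higher and 39 lower, and that of all genes tested was 0.00. By complex, the medians were 0.01 in complex I, -0.02 in its assembly factors, -0.02 in complex III, 0.04 in complex IV and -0.01 in complex V. Leaving out 1 mouse moved the median of the 88 genes to values from -0.05 to 0.07. With the replicate number as a block, none of the 88 genes was called.

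The largest differences between icosapent ethyl–treated and HFD mice were again in the complex IV isoforms, in genes whose SE was large. Cox8b was expressed at 8.09, 8.09, 4.95 and 5.30 CPM in icosapent ethyl–treated mice, with a log2 fold change of 0.60 ± 0.48 against HFD mice. Ndufa4l2 was expressed at 32.2, 36.7, 31.5 and 19.8 CPM, with a log2 fold change of 0.41 ± 0.35. Cox7a1 had 0.15 ± 0.19. The summed chromaffin markers were 9200, 10661, 10967 and 5531 CPM in these mice, and all 10 had positive fold changes against HFD mice, none of them called. The lowest values were those of Ndufaf4 at -0.14 ± 0.13, Atp5b at -0.11 ± 0.11 and Atp5a1 at -0.10 ± 0.10. All other genes of the set lay between -0.10 and 0.13. A difference of that size was within the error of these 4 and 4 mice, for which the median SE of the 88 genes was 0.11.

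In icosapent ethyl–treated versus LFD mice, none of the 88 genes was called either. Of all 15935 genes tested, edgeR called 0%, 14% had an unadjusted p below 0.05, and DESeq2 called 417 genes (2.69% of the 15481 to which it gave an adjusted p), none of them in the set. At an unadjusted p below 0.05 there were 8 of the 88 genes, 2 higher and 6 lower. This comparison shares its LFD mice with that of HFD versus LFD mice. The median log2 fold change was -0.06, with 31 of 88 genes higher. Ndufaf4 had a log2 fold change of 0.37 ± 0.13 and the lowest adjusted p of the set, 0.272. Every icosapent ethyl–treated mouse was above every LFD mouse in Ndufaf4, as in 4.04% of all genes tested, and below every LFD mouse in Cox7a2l (-0.20 ± 0.08, adjusted p = 0.341), as in 3.69%. Ndufs1 had 0.30 ± 0.12 (adjusted p = 0.333), Atp5b 0.21 ± 0.12 (adjusted p = 0.436), Cox8b -1.12 ± 0.41 (adjusted p = 0.295), Ndufa4l2 -0.77 ± 0.33 (adjusted p = 0.348) and Cox4i2 -0.55 ± 0.29 (adjusted p = 0.411).

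Genes that work with these subunits were counted from lists. Of the 4 genes of complex II, which feeds electrons from succinate into the chain, 2 were higher and 2 lower in HFD versus LFD mice, and none was called. Sdha, its flavoprotein, had 549 ± 72.1 CPM in the LFD and 677 ± 58.1 CPM in the HFD group (SD over 4 mice), with a log2 fold change of 0.30 ± 0.11 (adjusted p = 0.145). Of 34 tested assembly factors of complexes II to V and cytochrome c, 18 were higher and 16 lower. Their median log2 fold change was 0.02, and 1 was called. That gene was Coa5, a complex IV assembly factor, which rose from 199 ± 7.97 to 267 ± 21.6 CPM (log2 fold change 0.42 ± 0.08, adjusted p = 0.044). The Coa5 call was lost without any mouse other than HFD mouse 1 (adjusted p from 0.065 to 0.138), and its log2 fold change lay between 0.37 and 0.46 over all 8 removals. Taco1, a translational activator of mitochondrial COX1, had 0.65 ± 0.16 (adjusted p = 0.066), and Atpaf1, an F1 assembly factor, 0.35 ± 0.09 (adjusted p = 0.072). Taco1 and Atpaf1 were named because their p was low. Of 9 complex I assembly factors outside the Ndufaf names, 6 were higher and 3 lower, with a median log2 fold change of 0.0046, and none was called. Their sums were 258 to 264 CPM in LFD and 280 to 300 CPM in HFD mice, with no overlap. Foxred1, likewise named for a low p, had 0.38 ± 0.09 (adjusted p = 0.060). Of the 13 mitochondrially encoded subunits, 11 were higher and none was called, and the median of their log2 fold changes was 0.20. Their sums overlapped, at 15303 to 22363 CPM in LFD and 14891, 20414, 31659 and 27891 CPM in HFD mice 1 to 4. Of 14 transcriptional regulators, 9 were higher and none was called. Their sums were 363 to 400 CPM in LFD and 411 to 431 CPM in HFD mice, with no overlap. The sums of the other lists in this paragraph overlapped between LFD and HFD mice. The transcript of Nrf1 had 0.13 ± 0.11 (adjusted p = 0.504), that of Gabpa -0.01 ± 0.12 (adjusted p = 0.976), and that of Yy1 0.23 ± 0.07 (adjusted p = 0.117). Of the ATP synthase inhibitor and 3 carriers of ADP, ATP and phosphate, 1 was higher and 3 were lower, and none was called. Of 3 tested Higd factors of complex IV, 2 were higher, and none was called. No gene of these 7 lists was called in either comparison of icosapent ethyl–treated mice.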

How the data were processed

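RNA-seq was done on the adrenal cortex of 12 mice, 1 library per mouse, with groups taken from the labels. Raw read counts, 1 per gene and library, are what the authors deposited. They trimmed adaptors with cutadapt, aligned to GRCm38 with STAR, and counted on GENCODE M12 genes with HTSeq 0.6.1p1 in reverse-strand mode. Symbols, coordinates, and lengths came from GENCODE M21. Totals ranged from 34785979 to 67295963 counts. Only 3 of the 91 genes shared exon bases with another gene on the same strand, at most 4.48%. They counted with a minimum alignment quality, so reads that aligned equally well to a gene and a pseudogene were left out. How many were lost per gene cannot be told from counts, which limits comparisons of level between genes.

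Each comparison was fitted in its 8 mice with edgeR 4.0.16 in R 4.3.3 (TMM, filterByExpr at a minimum count of 10, robust quasi-likelihood test, Benjamini-Hochberg adjustment over all genes, threshold 0.05). CPM were scaled by TMM over all 12 mice, and means of log2 values used a pseudocount of 0.5. Where p-values are given, whether the mice of a group were independently housed is not known. The members and lists were chosen with earlier results of these data known. Named were genes past the threshold, core subunits, isoforms and paralogs, Ndufaf1 to Ndufaf8, and the 3 largest rises and falls per comparison among genes averaging 1 CPM or more in 1 or both groups. Other genes were picked from their values, as extremes of a class in fold change, p or spread. From each pathway list, genes past the threshold and up to 3 others with the lowest p were named, besides Nrf1, Gabpa and Yy1. Alternatives were DESeq2 1.42.0, its size factors, unscaled totals, no filter, at least 10 counts per mouse, a joint fit of all 12 mice, a threshold of 0.1, and leaving out each mouse. Code was tested on simulated data. One gene of the set enters the counts and medians and is not reported here by itself.

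Same-numbered HFD and icosapent ethyl–treated mice, each taken relative to its group, had correlations of 0.24, 0.116, 0.34 and 0.632 (numbers 1 to 4). Since each was above 0.1, the replicate number was also fitted as a block. The pairing comes from the numbers alone, and some differently numbered mice correlated more (0.598 for HFD mouse 1 with icosapent ethyl–treated mouse 2). Adrenocortical, chromaffin, adipocyte, brown adipocyte, macrophage, endothelial, pericyte, skeletal muscle and germ cell marker lists were summed per mouse. The 4 promoter motifs were chosen after the values were known, and the NRF1 letters were shortened to an 8-letter form after a longer form had been searched; because the median fold changes of genes with and without the motif shifted between both forms, that comparison is not given.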

Additional observations from a re-analysis of the deposited data

Results flagged for a closer look

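Single mice stood apart from the other 3 of their group in 11 of the 150 groups of 4 examined, where chance flags about 1 in 20. Icosapent ethyl–treated mouse 4 was high in Ndufs7 (78.6 CPM, others 69.7 to 69.9), Cyc1 (300.1 CPM, others 235 to 242) and Ndufa4 (202 CPM, others 175 to 176). LFD mouse 7 was high in Uqcrc2 (288 CPM, others 244 to 250). LFD mouse 5 was low in Cox8a (196 CPM, others 237 to 243) and Atp5g1 (128 CPM, others 146 to 149). Icosapent ethyl–treated mouse 1 was low in Atp5g1 (124 CPM, others 143 to 147). LFD mouse 5 was also low in the mean log2 level of the complex I subunits (-0.19, others 0.04 to 0.08) and of all 88 genes (-0.17, others 0.04 to 0.08). The remaining flags were single counts, Cox7b2 in HFD mouse 4 (0.0226 CPM) and Cox8c in LFD mouse 7 (0.0238 CPM), with 0 in the other mice of their groups.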

How the results depend on the processing

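The 1 call in HFD versus LFD mice, Ndufaf4, was lost with unscaled library totals and with no filter on low counts (0 genes each), 4 genes were called by DESeq2 and 2 at a threshold of 0.1, and leaving out 1 mouse gave 0 to 1. The unscaled totals moved the median of all genes from -0.01 to -0.11 and that of the complex I assembly factors from -0.03 to -0.14. No alternative called a gene of the set in icosapent ethyl–treated versus HFD or versus LFD mice. With the replicate block, no call changed and the median of the 88 genes was 0.01, the same to 2 decimals as without it. No pairing was fitted with LFD mice, which share only the number 2 with each other group. The median of the 88 genes ranged from -0.14 to -0.03 when each mouse was left out in HFD versus LFD mice. Cox6a2, Cox7b2 and Cox8c had too few counts to be tested at this depth. In all, 335 of 347 alternative values of counts and medians stayed within the spread between mice or within 1.5 times the count. A median near 0 could change sign and still lie within that spread. The median of complex III in icosapent ethyl–treated versus HFD mice changed sign in 4 of 8 removals of a mouse.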
